A study of Mus musculus with 14 samples.

Results

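The 10 genes described here encode enzymes of branched-chain amino acid catabolism, the pathway that breaks down leucine, isoleucine and valine. They are Bcat2, Bckdha, Bckdhb, Dbt, Bckdk, Ivd, Mccc1, Pcca, Pccb and Hibadh, chosen by symbol from the 23282 genes of a read count table. Each symbol was found on 1 row. The RNA came from epididymal white adipose tissue (eWAT), a visceral fat depot, of wild-type male C57BL/6J mice that were 4 weeks old when purchased. The mice were fed a normal diet (control group) or a Western diet rich in fat and cholesterol (WD group) for 20 weeks. The labels give 2 batches, with 4 control and 5 WD libraries in batch 1 and 5 control libraries in batch 2. All WD libraries were in batch 1, so diet and batch cannot be told apart when the WD group is set against the batch 2 controls.

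The first step of the pathway is a transamination by the mitochondrial aminotransferase Bcat2. The resulting keto acids are oxidised by the branched-chain keto acid dehydrogenase complex, in which Bckdha and Bckdhb form the E1 component, Dbt is the lipoyl-bearing E2 core and Dld is the shared E3 component. The kinase Bckdk switches the complex off by phosphorylating E1, and the phosphatase Ppm1k removes that phosphate. Ivd and Mccc1 act on the leucine branch, Hibadh on the valine branch, and Pcca and Pccb are the subunits of propionyl-CoA carboxylase, which takes up the 3-carbon product of isoleucine and valine. Fat cells carry out this pathway at a high rate and use its products for fatty acid synthesis.

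Levels are given as counts per 1000000 counts of the library (CPM), computed from the deposited counts with TMM factors, which correct library totals for differences in composition. QuantSeq reads only the 3′ part of a transcript, and counts do not depend on transcript length. Total counts were 10278970 to 13712254 per library, and the detection limit of 3 counts corresponded to 0.212 to 0.324 CPM. Library 1 of the batch 1 controls stood apart. Epididymis markers took 14.9% of its counts against at most 0.00538% in any other library, and its 18 adipocyte markers summed to 7439 CPM against 34167 to 96982 CPM elsewhere. Library 4 of the batch 1 controls had at least 1 count for 7999 genes, against 10903 to 13780 in the other 13. The members' batch 1 fold changes are therefore also given without library 1, and without both.

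The upstream sequence of 3 members, Bckdhb, Pcca and Mccc1, from E1 and from both carboxylases, is shown as examples. They are 3 of the 7 members called lower in the WD group than in the batch 2 controls. Each run is the 250 bases before the RefSeq transcription start, read 5′ to 3′ on the strand of the gene (GRCm38.p6), and the table used had such sequence for 9 of the 10 members, not for Dbt. The windows are chr9:83924887-83925136 on the plus strand for Bckdhb, chr14:122534078-122534327 on the plus strand for Pcca and chr3:36000679-36000928 on the minus strand for Mccc1. Capitals mark matches to a GC box (GGGCGG) or a CCAAT box (CCAAT) on either strand.
Bckdhb: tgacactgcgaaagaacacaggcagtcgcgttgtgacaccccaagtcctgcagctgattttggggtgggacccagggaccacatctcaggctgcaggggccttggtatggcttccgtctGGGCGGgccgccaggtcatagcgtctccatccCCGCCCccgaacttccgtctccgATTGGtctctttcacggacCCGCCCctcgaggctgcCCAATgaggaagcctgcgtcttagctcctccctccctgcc
Pcca: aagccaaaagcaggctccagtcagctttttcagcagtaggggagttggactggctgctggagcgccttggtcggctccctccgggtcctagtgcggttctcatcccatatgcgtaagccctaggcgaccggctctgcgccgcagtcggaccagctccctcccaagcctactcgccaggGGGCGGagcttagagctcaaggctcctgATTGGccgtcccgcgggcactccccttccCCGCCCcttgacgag
Mccc1: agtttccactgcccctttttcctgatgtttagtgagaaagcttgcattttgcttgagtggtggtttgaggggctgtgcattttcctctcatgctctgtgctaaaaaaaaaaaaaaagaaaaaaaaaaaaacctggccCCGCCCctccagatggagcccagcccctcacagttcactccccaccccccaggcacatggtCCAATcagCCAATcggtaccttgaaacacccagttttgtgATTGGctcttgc
The GC box letters were present in 4 of the 9 member windows (Bckdhb, Hibadh, Mccc1 and Pcca), and in 32.7% of 32851 promoter windows of the same length. CCAAT was present in 6 of 9 (those 4, Bckdk and Ivd) and in 33.8% of all windows. The 3 printed windows held both boxes. Of the other members called lower that had sequence, Hibadh held both, Ivd held CCAAT alone and Pccb held neither. In the 9 windows there was no E-box (CACGTG, 6.02% of all windows), no CCGGAAG (an ETS site, 6.91%) and no AAGGTCA (a nuclear receptor element, 4.08%). Such a match describes letters and is no evidence of binding.

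**Figure D1:**
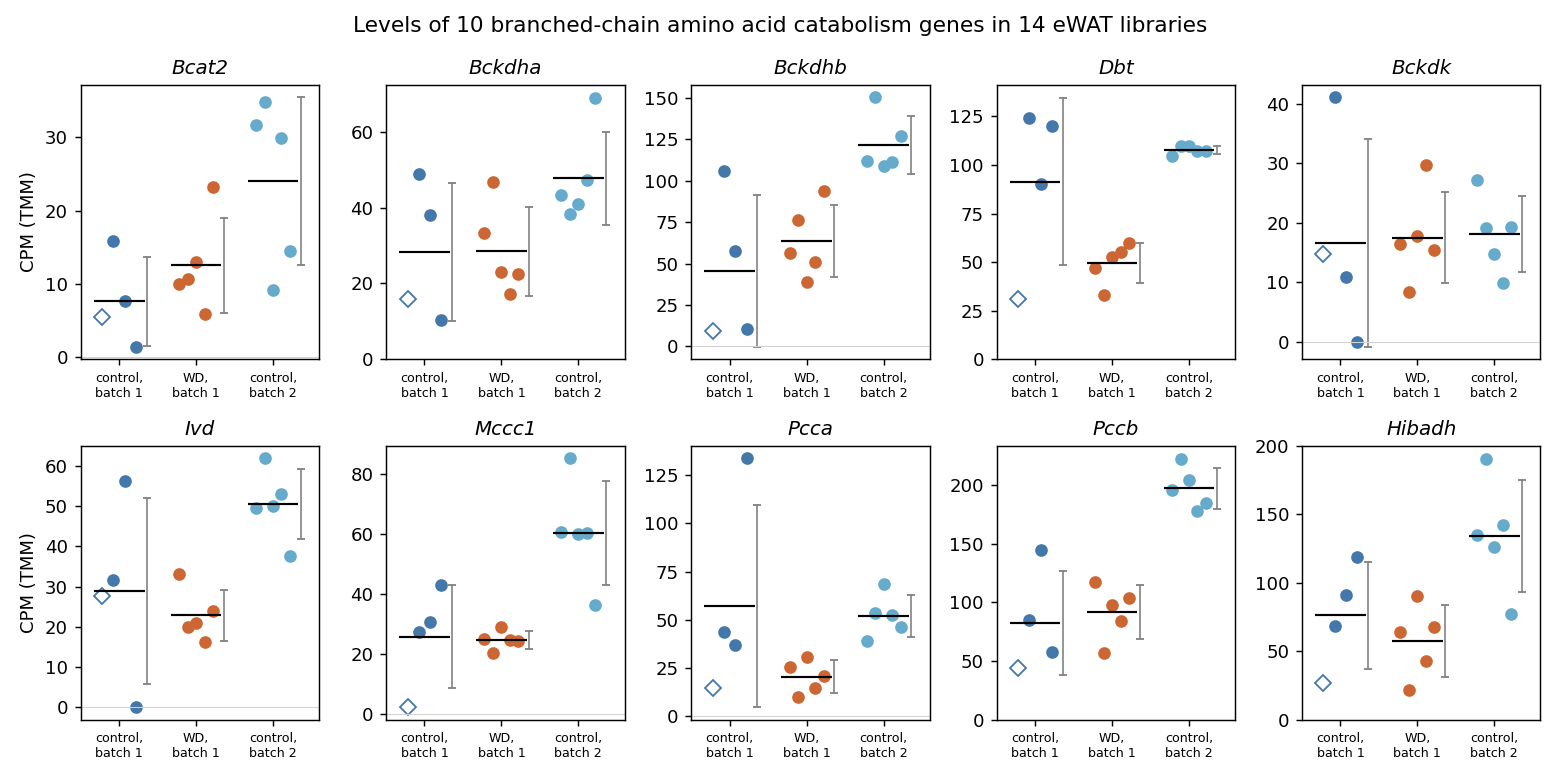
Level of each of the 10 genes in each eWAT library (CPM on the vertical axis, 1 point per library). Horizontal lines are group means, grey bars beside them are ± SD, and the open diamond is batch 1 control 1. In batch 2 controls the 6 genes Bckdhb, Dbt, Ivd, Mccc1, Pcca and Pccb lie wholly above the WD libraries, while the 4 batch 1 controls spread widely.

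Within batch 1, where diet was compared without a change of batch, none of the 10 genes was called at a false discovery rate (FDR) under 0.05, and neither was any of the 12157 genes tested (edgeR's quasi-likelihood test, background 0%). At an unadjusted p under 0.05 there were 628 genes (5.17% of all tested, 1.82% lower in the WD group), and 2 members, Dbt and Pcca, were among the lower ones. DESeq2 called 114 genes (0.938%) and no member. The log2 fold changes of 5 members were below 0 and those of 5 above, with a median of -0.03 beside 0.03 for all genes. Without control 1, 7 were below 0 and the median was -0.28 (0.13 for all genes), and without controls 1 and 4 it was 9 and -0.52 (0.04).

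Against the batch 2 controls, 7 of the 10 genes were lower in the WD group (FDR under 0.05), and none was higher. The background over 12070 genes was 2.48% lower, 3.93% higher and 6.4% in either direction. All 10 log2 fold changes were below 0, with a median of -1.12 beside -0.0034 for all genes tested. Dbt, Mccc1, Pccb, Ivd and Pcca passed in the main comparison and under all 17 alternatives run, Bckdhb under 13 and Hibadh under 9. The highest FDR over the alternatives was 0.0111 for Dbt, 0.027 for Mccc1, 0.0139 for Pccb, 0.0408 for Ivd and 0.0499 for Pcca. In 6 members the 5 WD libraries lay wholly below the 5 batch 2 controls (background 3.48% of 13248 genes with a mean of at least 1 CPM). In exact permutation tests of log2(CPM + 1), two-sided and unadjusted, these 6 reached p = 0.00794, the smallest this design allows. The other values by the same exact test were 0.0159 for Hibadh, 0.0317 for Bckdha, 0.103 for Bcat2 and 0.802 for Bckdk. Between the control groups the diet was the same and the batch differed. This comparison is not of batch alone, since the batch 1 controls hold libraries 1 and 4 described above. No member and no gene among 12106 was called (background 0%), and at an unadjusted p under 0.05 there were 895 genes (7.39% of all tested, 3.85% higher in batch 2). Bcat2, Bckdhb and Pccb were among the higher ones. With all 4 batch 1 controls kept, 2 members, Bckdhb and Pccb, lay wholly higher in batch 2 (background 3.79%). By the exact test of log2(CPM + 1), two-sided and unadjusted, both had p = 0.00794. The same test gave 0.0159 for Mccc1, 0.0397 for Bcat2 and for Ivd, and 0.0714 to 0.611 for the remaining members. Of the 10 members 9 had a log2 fold change above 0 in batch 2, with a median of 0.80 against -0.0024 for all genes. Without batch 1 control 1 there were 8 above 0 with a median of 0.67 (0.10 for all genes), and Mccc1 and Pccb were the members at an unadjusted p under 0.05. Without controls 1 and 4 there were 9 with a median of 0.48 (0.01 for all genes), and those members were Mccc1, Pccb and Hibadh. DESeq2 called 111 genes (0.917%) between the control groups and no member. The comparisons share groups, so their values are set side by side below and are not separate evidence.

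**Figure D2:**
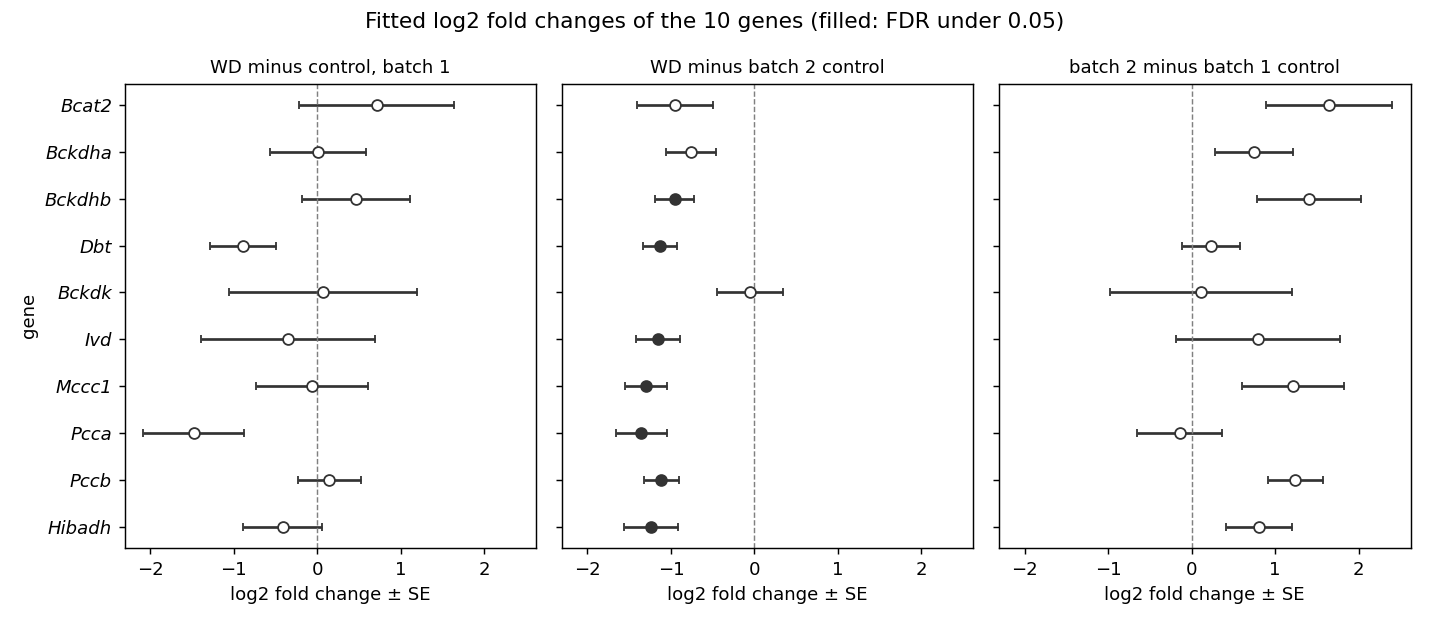
Log2 fold change ± SE (horizontal axis) of the 10 genes (vertical axis) in 3 comparisons, fitted with edgeR. Filled points have an FDR under 0.05. In the middle panel 7 are filled, all to the left of 0, and there are none in the other panels.

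Bcat2 (chromosome 7, 45570153 to 45589710, plus strand, mm10, as are the positions below) is the entry enzyme and the least abundant member in batch 1. It measured 5.51, 15.8, 7.67 and 1.45 CPM in batch 1 controls 1 to 4, 10.02, 10.7, 12.95, 5.86 and 23.2 CPM in the WD libraries, and 31.7, 34.9, 9.13, 29.9 and 14.5 CPM in batch 2 controls. The 3 groups overlapped. Its log2 fold change was -0.95 ± 0.45 (SE) against the batch 2 controls (edgeR FDR 0.285) and 0.71 ± 0.93 in batch 1 (FDR 1.00), so the direction differed between the control groups used. The batch 1 value was 0.59 ± 1.01 without control 1 and 0.09 ± 0.78 without controls 1 and 4. Between the control groups it was 1.65 ± 0.75 (edgeR FDR 0.675).

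Bckdha (chromosome 7, 25629852 to 25658761, minus strand), the E1 alpha subunit, also showed no call in any of the 3 comparisons. It averaged 28.3 ± 18.2 CPM (SD, n = 4) in batch 1 controls, 28.5 ± 11.8 CPM (n = 5) in the WD group and 47.8 ± 12.3 CPM (n = 5) in batch 2 controls. The WD range of 17.1 to 46.8 CPM overlapped the batch 2 range of 38.4 to 69.1 CPM through WD library 2 alone. The log2 fold change against batch 2 controls was -0.76 ± 0.30 (FDR 0.169), and without WD library 2 it was -1.01 with an FDR of 0.0326 by edgeR. That was the only call among the 17 alternatives, whose FDRs reached 0.395. In batch 1 the log2 fold change was 0.0055 ± 0.58, but -0.19 ± 0.59 without control 1 and -0.61 ± 0.46 without controls 1 and 4. An exon of B3gnt8, on the opposite strand, lies within the last 500 bases of Bckdha, where 3′ reads fall, and in GENCODE no exon of another gene lies there for the other 9 members. The strand setting of the counting is not stated, so that reads of the pair cannot be told apart. The bases searched stop at the deposited ends of the genes. GENCODE places the ends of Bckdk (127910221), Ivd (118882909) and Pcca (122891100) further downstream, where no search was made.

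Bckdhb (chromosome 9, 83925137 to 84124240, plus strand), the E1 beta subunit, measured 56.6, 76.5, 39.1, 50.9 and 93.9 CPM in the WD libraries and 111.8, 150.4, 108.7, 111.4 and 127.0 CPM in batch 2 controls. All WD values lay below all batch 2 values, and the log2 fold change was -0.96 ± 0.24 (edgeR FDR 0.0222). Batch 1 controls 1 to 4 measured 9.07, 105.9, 57.4 and 10.6 CPM, a range that held the whole WD group. These controls, too, lay below all batch 2 controls. The batch 1 fold change was 0.47 ± 0.64 (FDR 1.00), and it ran from 0.12 without control 4 (0.13 without control 1) to 1.29 without control 2. Without controls 1 and 4 it was below 0, at -0.37 ± 0.39. Leaving out WD library 1 or 3, or batch 2 control 2 or 5, moved the FDR against batch 2 controls to 0.0503 to 0.0639. Between the control groups Bckdhb was higher in batch 2 by 1.41 ± 0.62 (edgeR FDR 0.649). That value was 1.07 ± 0.53 without batch 1 control 1 and 0.58 ± 0.27 without controls 1 and 4.

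Dbt (chromosome 3, 116513079 to 116549981, plus strand) encodes the E2 core and had the steadiest level of the members in batch 2. Its levels were 104.9, 109.6, 110.0, 107.0 and 107.0 CPM in batch 2 controls, a coefficient of variation of 1.98%. The WD libraries measured 47.0, 32.9, 52.5, 55.4 and 59.7 CPM, and batch 1 controls 30.998, 124.3, 90.2 and 120.3 CPM. Every WD library was thus lower than every control but batch 1 control 1, the library with epididymis RNA. The log2 fold change was -1.13 ± 0.20 against batch 2 controls (edgeR FDR 0.00219) and -0.89 ± 0.40 in batch 1 (edgeR FDR 0.950). Without control 1 the batch 1 value was -1.17 ± 0.30 (edgeR FDR 0.439), and without controls 1 and 4 it was -1.11 ± 0.32 (FDR 0.173). The two-sided exact permutation p of log2(CPM + 1) was 0.135 with control 1 and 0.0179 without it, the smallest that 56 splits allow, unadjusted.

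When the 5 WD libraries were fitted against 8 controls of both batches, leaving out batch 1 control 1, Dbt was lower by -1.14 ± 0.20 (edgeR FDR 0.00482) and Pcca by -1.53 ± 0.37 (FDR 0.0483). They were the only members called there, beside a background of 0.529% of 12468 genes lower, and also the only 2 whose WD libraries did not overlap the 8 controls (background 0.619% lower). With control 1 kept, no member was called, beside 0.0948% of 12653 genes lower, and the FDRs were 0.161 for Dbt and 0.227 for Pcca. These fits hold no batch term although all WD libraries are in batch 1, so their difference mixes diet with batch. With a batch term over all 14 libraries neither gene was called (edgeR FDR 0.358 for Dbt and 0.313 for Pcca), nor within batch 1 without control 1 (0.439 and 0.498). The comparison with 8 controls was added after the values were seen.

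Bckdk (chromosome 7, 127904073 to 127909664, plus strand), the inhibitory kinase, had the smallest log2 fold change of the members against batch 2 controls. It measured 16.4, 8.37, 17.8, 29.7 and 15.4 CPM in the WD libraries and 27.3, 19.1, 14.8, 9.93 and 19.4 CPM in batch 2 controls. The groups overlapped fully, with a log2 fold change of -0.05 ± 0.40 (edgeR FDR 0.978). An SE of this size leaves room for differences in either direction. Batch 1 controls measured 14.7, 41.0, 10.8 and 0 CPM, the last being library 4 with 0 counts, where 3 counts correspond to 0.218 CPM. The fitted batch 1 value of 0.07 ± 1.13 was -0.36 without that library, 1.02 without control 2, 0.02 without control 1 and -0.57 without controls 1 and 4.

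Ivd (chromosome 2, 118862000 to 118881357, plus strand), isovaleryl-CoA dehydrogenase of the leucine branch, measured 33.2, 20.1, 20.9, 16.1 and 23.8 CPM in the WD libraries and 49.6, 62.0, 50.01, 53.1 and 37.6 CPM in batch 2 controls. The groups did not overlap, and the log2 fold change was -1.16 ± 0.26 (edgeR FDR 0.0121). Batch 1 controls measured 27.6, 31.8, 56.3 and 0 CPM, again with 0 counts in library 4. The batch 1 fold change was -0.35 ± 1.04 (FDR 1.00). It was -0.36 ± 1.14 without control 1 and 0.17 without control 3, and without controls 1 and 4 it was -0.95 ± 0.45 (edgeR FDR 0.542).

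Mccc1 (chromosome 3, 35959306 to 36000678, minus strand), the biotin-bearing subunit of methylcrotonyl-CoA carboxylase in the leucine branch, was even across the WD libraries at 25.2, 20.6, 29.2, 24.9 and 24.3 CPM. Batch 2 controls measured 60.7, 85.2, 59.9, 60.2 and 36.2 CPM, all higher, with a log2 fold change of -1.30 ± 0.25 (edgeR FDR 0.00430). Batch 1 controls 2 to 4 measured 27.5, 30.8 and 43.0 CPM and control 1 only 2.38 CPM (22 counts). These 3 controls overlapped the WD group, and the batch 1 fold change was -0.06 ± 0.67 with control 1, -0.44 ± 0.46 without it (edgeR FDR 1.00 for both) and 0.28 without control 4. Without controls 1 and 4 that fold change was -0.23 ± 0.43 (FDR 0.967). Mccc1 differed more between the control groups than Dbt did, by 1.22 ± 0.61 against 0.23 ± 0.35 on the log2 scale, a difference between genes that was not tested. Without batch 1 control 1 these values were 0.83 ± 0.34 and -0.059 ± 0.19.

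Pcca (chromosome 14, 122534328 to 122889944, plus strand), the biotin-bearing alpha subunit of propionyl-CoA carboxylase, measured 25.8, 9.87, 31.01, 14.9 and 21.1 CPM in the WD libraries. Batch 2 controls measured 39.3, 53.6, 68.4, 52.5 and 46.1 CPM and batch 1 controls 14.7, 43.5, 36.9 and 133.7 CPM. As for Dbt, every WD value was lower than every control value but that of batch 1 control 1. The log2 fold change was -1.35 ± 0.31 against batch 2 controls (edgeR FDR 0.0134) and -1.48 ± 0.60 in batch 1 (edgeR FDR 0.849). The exact permutation p in batch 1 was 0.119 with control 1 and 0.0179 without it. The batch 1 fold change was -1.80 ± 0.53 without control 1 (edgeR FDR 0.498), -0.65 ± 0.52 without control 4, whose value was high at 1842 counts (FDR 0.804), and -0.97 ± 0.50 without both (FDR 0.606).

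Pccb (chromosome 9, 100982038 to 101034875, minus strand), the beta subunit of the same carboxylase, had the highest mean of the members in the WD group and in batch 2. It measured 117.4, 56.5, 98.1, 83.8 and 103.7 CPM in the WD libraries and 195.6, 222.4, 204.3, 178.2 and 184.9 CPM in batch 2 controls, without overlap. The log2 fold change was -1.11 ± 0.21 (edgeR FDR 0.00289). Batch 1 controls measured 44.5, 84.6, 144.5 and 57.7 CPM, which spanned the WD group and lay below all batch 2 controls. The batch 1 fold change was 0.15 ± 0.38 (FDR 1.00), with -0.057 ± 0.35 without control 1, 0.53 without control 3 and -0.32 ± 0.34 without controls 1 and 4. Between the control groups Pccb was higher in batch 2 by 1.24 ± 0.33 without passing the FDR (edgeR FDR 0.445).

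Hibadh (chromosome 6, 52546230 to 52640300, minus strand), 3-hydroxyisobutyrate dehydrogenase of the valine branch, measured 64.1, 21.8, 90.7, 42.6 and 68.1 CPM in the WD libraries. Batch 2 controls measured 135.0, 190.6, 125.8, 142.4 and 77.2 CPM, so the groups overlapped through batch 2 control 5. The log2 fold change was -1.24 ± 0.32 (edgeR FDR 0.0290), and the FDR was 0.0559 to 0.0940 under the 8 alternatives that lost the call. In batch 1 controls it measured 26.7, 68.4, 91.4 and 119.1 CPM, overlapping the WD group, with a fold change of -0.41 ± 0.48 (FDR 1.00). It was -0.69 ± 0.42 without control 1, -0.14 without control 4 and -0.47 ± 0.45 without both.

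The order of the members by mean level was Pccb, Bckdhb, Hibadh, Dbt, Bckdha, Mccc1, Ivd, Pcca, Bckdk and Bcat2 in the WD group. In batch 2 controls it was Pccb, Hibadh, Bckdhb, Dbt, Mccc1, Pcca, Ivd, Bckdha, Bcat2 and Bckdk. Pccb lay above the range of its neighbour in batch 2 except for Hibadh in library 2, at 190.6 CPM, and Mccc1, Pcca, Ivd and Bckdha overlapped one another in both groups. In batch 1 controls the mean levels of Dbt, Pccb and Hibadh, at 91.5 ± 43.1, 82.8 ± 44.4 and 76.4 ± 39.1 CPM (SD, n = 4), did not differ beyond their spread.

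Markers of fat cells and of macrophages also differed between the WD group and the batch 2 controls. Against the batch 2 controls, 13 of 18 adipocyte markers were lower in the WD group and none was higher, with a median log2 fold change of -1.03. Adipoq, the fat cell hormone adiponectin, was lower by -1.40 ± 0.19 (edgeR FDR 0.000306) and Car3, a carbonic anhydrase abundant in fat cells, by -2.25 ± 0.18 (FDR 3.57e-06), whereas Fabp4, the fatty acid carrier, was at -0.32 ± 0.25 (FDR 0.613). All 12 macrophage markers were higher in the WD group, with a median of 2.01, among them the growth factor receptor Csf1r (1.96 ± 0.35) and the complement genes C1qa (1.96 ± 0.28) and C1qb (2.05 ± 0.27). The summed macrophage markers were 2228 to 3569 CPM in the WD group, 501 to 998 CPM in batch 2 controls and 446 to 2071 CPM in batch 1 controls. No defining adipocyte marker was absent from the WD group, where Adipoq measured 3544 to 5952 CPM. The part of these markers in the members' differences was not tested. Between the control groups 7 of the 18 adipocyte markers were higher in batch 2 at an unadjusted p under 0.05 (median log2 fold change 1.19), and in batch 1 the median of diet was -0.07, with no call in either. Without batch 1 control 1 these medians were 0.85 and -0.42, again with no call, and without controls 1 and 4 they were 0.70 and -0.55, with Cfd and Retn called lower in the WD group in batch 1. These list values without libraries were computed after the data were seen. In bulk tissue, fewer cells of a type and less RNA per cell cannot be told apart.

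The remaining marker lists moved less. No mesothelial (7 tested) or endothelial gene (7 tested) was called in any of the 3 comparisons. Among these, the mesothelial genes Lrrn4, Krt19 and Upk1b had log2 fold changes of -0.03, -0.97 and -0.50 against batch 2 controls. The endothelial genes Pecam1, Egfl7 and Kdr had 0.06, 0.56 and 0.0028. Of 7 stromal genes 2 were higher against batch 2 controls, the collagens Col3a1 (1.26 ± 0.25, edgeR FDR 0.00461) and Col1a1 (1.47 ± 0.27, FDR 0.00305), and Dcn was at 0.37 ± 0.25 (FDR 0.534). In batch 1 none of these lists had a call, and 9 of the 12 macrophage markers were higher at an unadjusted p under 0.05 (background 3.35% higher), with a median log2 fold change of 1.51. Without control 1 there were 8 and the median was 1.29. Without controls 1 and 4 there were 11 with a median of 2.03, and Adgre1, Csf1r, Itgax, Trem2 and Tyrobp passed the FDR.

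Set against the summed adipocyte markers, the summed level of the members overlapped between the WD group and batch 2 controls. For every 1000 CPM of summed adipocyte markers, the 10 members summed to 10.8, 8.90, 8.82, 8.29 and 9.99 CPM in the WD libraries and to 9.17, 9.96, 8.70, 9.71 and 8.17 CPM in batch 2 controls. These ranges overlapped almost wholly, while the member sums themselves did not overlap, with WD libraries at 304 to 456 CPM against 719 to 966 CPM in batch 2. Batch 1 controls 2 to 4 had 9.40, 8.78 and 10.9 CPM per 1000, and control 1 had 25.8. For Dbt alone the WD libraries ranged from 0.964 to 1.35, against 1.13 to 1.31 in batch 2 controls. Batch 1 controls ranged from 1.40 to 4.17, with control 1 at the upper end. For Pcca the WD, batch 2 and batch 1 ranges were 0.289 to 0.659, 0.451 to 0.751 and 0.575 to 2.94, control 1 included. The median quotient of Bckdk was higher among WD libraries (0.377) than among batch 2 controls (0.197). Its ranges, 0.245 to 0.721 against 0.122 to 0.313, overlapped. The level of Bckdk itself overlapped fully, with means of 17.5 and 18.1 CPM, in that order. The summed adipocyte markers did not overlap, with WD libraries at 34167 to 47070 CPM against 81541 to 96982 CPM. These quotients are a description without a test. The adipocyte sum is led by a few genes, so the mean log2(CPM + 1) of the members was also set against that of the markers. The WD libraries then differed from their markers by -4.62 to -4.07 and batch 2 controls by -4.73 to -4.40. WD library 2 (-4.62) alone lay in the batch 2 range, and the other WD libraries (-4.36 to -4.07) lay above it.

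**Figure D3:**
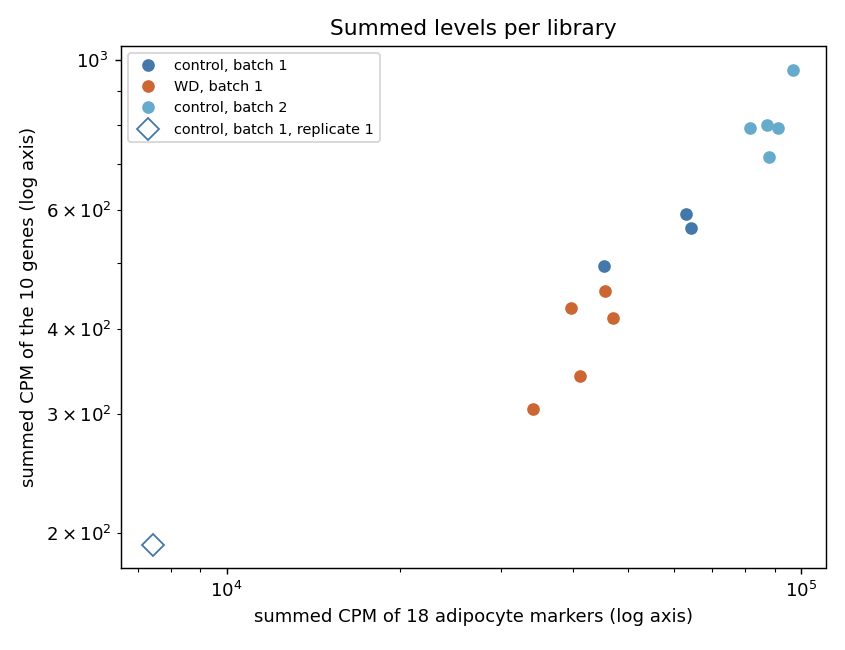
Summed CPM of the 10 genes (vertical, log axis) against summed CPM of 18 adipocyte markers (horizontal, log axis), 1 point per library. WD libraries (304 to 456 CPM) and batch 2 controls (719 to 966 CPM) are apart on both axes. Batch 1 controls 2 to 4 lie between them on the vertical axis (496 to 592 CPM), control 4 lies within the WD range on the horizontal axis, and the open diamond is batch 1 control 1.

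Other genes of branched-chain amino acid catabolism were lower too. Of 20 tested, 7 were lower and 1 was higher in the WD group than in batch 2 controls (background 2.48% lower and 3.93% higher), with a median log2 fold change of -0.81. The lower ones were Aldh6a1, methylmalonate semialdehyde dehydrogenase of the valine branch (-1.82 ± 0.38, edgeR FDR 0.00666), Mccc2, the partner subunit of Mccc1 (-1.68 ± 0.35, FDR 0.00683), Hibch (-1.42 ± 0.32), Acadsb (-1.07 ± 0.18), Mut (-1.003 ± 0.26), Echs1 (-0.99 ± 0.22) and Acat1 (-0.94 ± 0.24). Within batch 1 none of the 20 was called. Aldh6a1 was at -1.21 ± 0.44 (edgeR FDR 0.680) and Mccc2 at -1.31 ± 0.61 (FDR 0.976) there. Dld, the E3 component, was at -0.57 ± 0.26 (FDR 0.266) against batch 2 controls and the phosphatase Ppm1k at -0.84 ± 0.45 (FDR 0.365).

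Bcat1, the cytosolic aminotransferase, was called higher. It measured 11.2 to 16.2 CPM in the WD group and 0 to 3.29 CPM in batch 2 controls, a fitted log2 difference of 3.84 ± 1.09 (edgeR FDR 0.0456). In batch 1 controls it measured 3.02 to 25.98 CPM, and the batch 1 fold change was 0.21 ± 0.80 (FDR 1.00). Its counterpart Bcat2 was lower in mean in the same WD libraries than in batch 2 controls, at 12.5 ± 6.47 against 24.02 ± 11.4 CPM (SD, n = 5), without a call. None of the transport genes of the list was called in any comparison, with 4 tested against batch 2 controls and 5 in batch 1.

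Related enzymes gave a like picture against batch 2 controls. Among 12 genes of the other lipoyl complexes, which share cofactor and E3 with the dehydrogenase, Pdhb (-1.24 ± 0.21, edgeR FDR 0.00125), Dlst (-1.01 ± 0.21) and 1 more, Dlat, were lower, and Pdk4, the pyruvate dehydrogenase kinase, was higher (1.82 ± 0.49, FDR 0.0329). Acacb (-1.32 ± 0.19) and Acaca (-1.16 ± 0.21), the acetyl-CoA carboxylases, were lower among 5 biotin carboxylases, while pyruvate carboxylase Pcx was at -0.66 ± 0.31 (FDR 0.268). Among 14 genes of the tricarboxylic acid cycle, 3 were lower, among them Sdha (-0.82 ± 0.16) and Idh3b (-0.91 ± 0.21). Medians of the 3 lists were -0.82, -0.86 and -0.80. In batch 1 none of these genes was called, except for Acacb, lower, when controls 1 and 4 were left out.

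**Figure D4:**
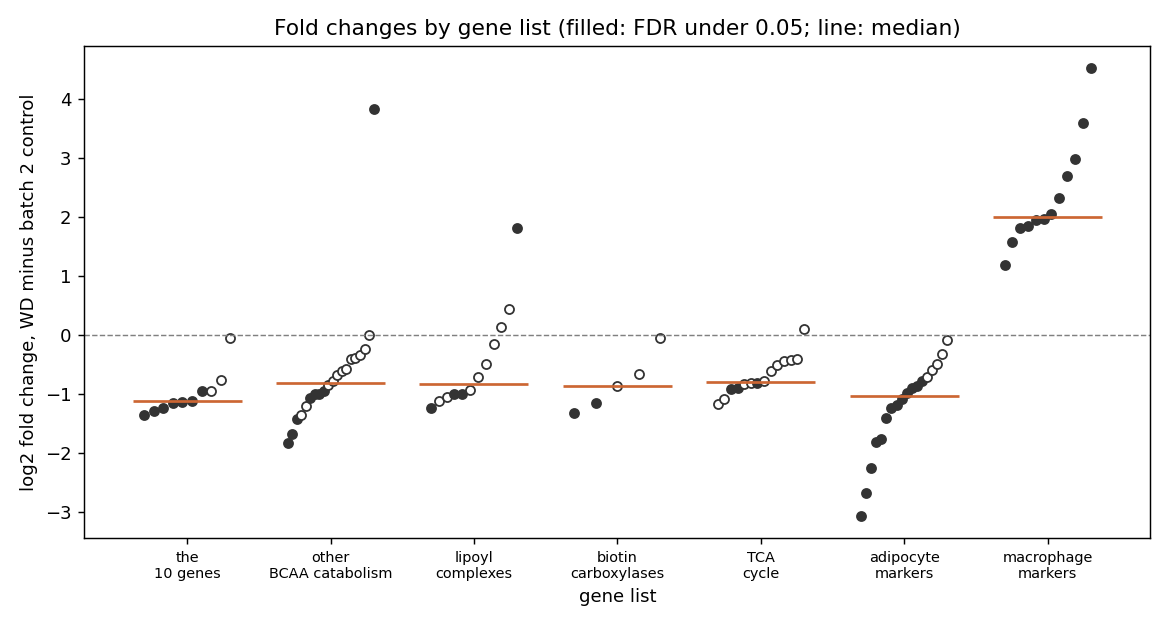
Log2 fold changes of WD against batch 2 control (vertical axis) for each tested gene of 7 lists (horizontal axis), with list medians as lines and filled points at an FDR under 0.05. The 10 genes (median -1.12) lie about as low as the adipocyte markers (-1.03), and all 12 macrophage markers lie above 0.

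The genes whose log2(CPM + 1) followed the mean of the members most closely over the 14 libraries were Amy1 (Pearson's r = 0.961), the beta-3 adrenergic receptor gene Adrb3 (0.959), Dlst (0.952), Ssbp3 (0.948) and Mgst2 (0.946), among 7979 genes with a mean of at least 10 CPM. Without batch 1 control 1 the 5 closest were Adrb3 (0.962), Grb10 (0.962), Amy1 (0.947), Dlst (0.939) and Plin1 (0.938), so that 3 of the first 5 stayed. These libraries share diet and batch within a group. The values of r do not separate differences between groups from those between libraries of a group.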

How the data were processed

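Epididymal fat RNA of 14 mice was measured by QuantSeq 3′-mRNA sequencing. Single-end reads were mapped by the authors with Bowtie2, and coverage in Bedtools gave the deposited counts, raw and with multiply aligned reads included. The authors also deposited log2 values of CPM after TMM normalization in edgeR, with 1 added, which differed from the recomputed member values by at most 0.0489. The submitters' processing notes name mm10. Counting strand and molecular identifiers are not given in the sources used here, so that the detection limit of 3 counts covers counting error only, and copies made by PCR count as reads.

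Groups came from the library labels. Each comparison used the libraries of its 2 groups, edgeR 4.0.16 (quasi-likelihood test, TMM, edgeR's filter on low counts, Benjamini-Hochberg FDR under 0.05) in R 4.3.3, with limma 3.58.1 and DESeq2 1.42.0 as alternatives. The SE is the log2 fold change divided by the square root of its F. The tests were tried on simulated data. Levels were computed in Python 3.11.15 with pandas 2.3.3 and numpy 2.4.6, and plots drawn with matplotlib 3.10.9. The members and lists were chosen with earlier results of these data known. All members are described. Other genes are named if called in the pathway and transport lists (with Bcat1, Dld and Ppm1k in any case), by the 3 lowest FDRs against batch 2 controls in related enzyme lists, by the 3 highest means in marker lists, and by the 5 highest correlations. Dlat was named after its value was seen. One gene that this rule names among the related enzymes is not reported here. Labels do not give litters or cages. The p-values set a difference against the spread between mice of a group, and that spread does not cover a difference between batches. No pair of libraries agreed within sampling noise. As alternatives, normalization by upper quartile or by totals, other filters, DESeq2, limma-voom, all 14 libraries, a replicate block and the omission of each library were tried.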

Additional observations from a re-analysis of the deposited data

Results flagged for a closer look

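In 30 groups of 4 or 5 libraries (10 genes in 3 groups), 1 library stood apart from the others of its group by Dixon's test, where chance would give about 1.5. Mccc1 had a log2(CPM + 1) of 1.76 in batch 1 control 1, against 4.83 to 5.46 in batch 1 controls 2 to 4. This is the library in which epididymis markers took 14.9% of the counts.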

How the results depend on the processing

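Against batch 2 controls, 6 or 7 members were called under the alternatives with all libraries and 5 to 8 with each library left out, always lower. Within batch 1 and between the control groups no member was called with any library left out (0 to 0), nor under the other alternatives, except that all 14 libraries without a batch term, less batch 1 control 1, called 2. The replicate numbers did not pair the libraries (correlation of deviations at most 0.0983), and a replicate block gave 0, 6 and 0 members called in batch 1, against batch 2 controls and between control groups, and 594 genes against batch 2 controls. Genes called in batch 1 were 0, but 114 with DESeq2, 48 without control 4, 108 without controls 1 and 4, 1 with all 14 libraries and a batch term, 67 without that term and 190 without it and control 1. Between control groups they were 0, but 111 with DESeq2, 2 without batch 1 control 4, 1 without control 1 and 28 without both.

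Members whose log2 fold change crossed 0 were not called on either side, and the cause was not tested. The median over all genes itself was shifted to 0.42 in batch 1 and 0.51 between control groups with limma-voom (-0.11 against batch 2 controls), and to 0.29 and 0.38 with the replicate block. In batch 1, Bckdha was -0.026 with upper-quartile factors, -0.061 with library totals, -0.086 with genes of CPM 1 or more throughout, -0.070 with DESeq2 and -0.0045 with 14 libraries and a batch term, and Bckdk was -0.0034 with DESeq2. Ivd and Mccc1 were 2.17 and 0.21 with limma-voom, and 0.42 and 0.34 with the replicate block. Without controls 1 and 4, Bckdha, Bckdhb, Bckdk and Pccb were -0.61, -0.37, -0.57 and -0.32. With 14 libraries and no batch term, Bcat2, Bckdha, Bckdhb, Bckdk and Pccb were -0.43, -0.47, -0.49, -0.0011 and -0.68, and less control 1 they were -0.53, -0.56, -0.63, -0.021 and -0.79. Between control groups, Pcca was 0.16 with limma-voom, 0.33 with the replicate block and 0.37 without controls 1 and 4, and Bckdk was -0.52 without them. With each library left out in turn, batch 1 values ran from -0.29 to 0.39 for Bckdha, -0.36 to 1.02 for Bckdk, -0.78 to 0.17 for Ivd, -0.44 to 0.28 for Mccc1 and -0.057 to 0.53 for Pccb. Bckdk ran from -0.34 to 0.14 against batch 2 controls and from -0.29 to 1.12 between control groups, where Dbt ran from -0.059 to 0.41 and Pcca from -0.47 to 0.72.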
